A study of Mus musculus with 6 samples.

Results

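The cyclin-dependent kinase (CDK) inhibitors and the Rb family are 10 genes that hold cells out of division, and all 10 were measured here among 20059 genes. Members were taken by symbol: Cdkn1a, Cdkn1b and Cdkn1c (the Cip/Kip inhibitors p21, p27 and p57), Cdkn2a, Cdkn2b, Cdkn2c and Cdkn2d (the Ink4 inhibitors) and Rb1, Rbl1 and Rbl2 (the pocket proteins pRb, p107 and p130). The samples were KLS cells, bone marrow cells that carry Kit and Sca-1 and lack mature lineage markers, the fraction with the blood stem cells and the earliest progenitors. The series has 3 wild-type arrays and 3 Dnmt3a+/- arrays, the latter heterozygous for a loss of Dnmt3a, which encodes a DNA methyltransferase. The labels name no treatment, time, age or strain. Nor do they tell if each array is a different mouse, so the p-values reflect the spread of these samples alone, part of which may be technical. Its title links reduced Dnmt3a dosage to a predisposition to myeloid malignancy, and the comparison of genotypes asks whether these brakes on the cell cycle differ in stem and progenitor cells.

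In the textbook account, cyclin D bound to Cdk4 or Cdk6, and then cyclin E bound to Cdk2, phosphorylate the pocket proteins. Phosphorylated pocket proteins release E2F factors, which switch on genes of DNA replication. Ink4 proteins bind Cdk4 and Cdk6, while Cip/Kip proteins act on complexes of several kinases. In the marrow p57 and p27 are known for keeping stem cells at rest, p21 for the response to p53, p18 (Cdkn2c) for limiting stem cell self-renewal, and the Cdkn2a products p16 and Arf for the arrest of aged or stressed cells. Much of the control of p27 is by protein degradation and that of the pocket proteins by phosphorylation, neither of which an RNA array reads.

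Start-site sequences are shown for 2 members because they bear on how their values are read. Cdkn2a has 2 start sites, one for the Arf transcript and one for the p16 transcript, and its single gene value pools both. The Rbl1 window holds an E2F motif, the sequence that E2F factors bind. The windows are the 250 bases before each start in RefSeq (GRCm38.p6), all on the minus strand and written 5′ to 3′, with E2F motifs in capitals. The Arf window is chr4:89294620-89294869, the p16 window chr4:89282193-89282442 and the Rbl1 window chr2:157204535-157204784.
Cdkn2a, Arf start: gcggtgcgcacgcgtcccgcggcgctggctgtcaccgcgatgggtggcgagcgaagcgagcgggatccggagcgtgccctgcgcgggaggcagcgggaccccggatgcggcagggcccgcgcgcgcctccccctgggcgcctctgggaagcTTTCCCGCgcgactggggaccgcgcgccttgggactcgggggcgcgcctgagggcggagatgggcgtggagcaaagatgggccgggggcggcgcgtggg
Cdkn2a, p16 start: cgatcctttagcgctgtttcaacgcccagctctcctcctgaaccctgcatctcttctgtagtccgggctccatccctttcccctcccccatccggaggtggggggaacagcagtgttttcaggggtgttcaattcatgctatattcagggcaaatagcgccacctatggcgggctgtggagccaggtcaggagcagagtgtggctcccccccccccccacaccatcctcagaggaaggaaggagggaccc
Rbl1: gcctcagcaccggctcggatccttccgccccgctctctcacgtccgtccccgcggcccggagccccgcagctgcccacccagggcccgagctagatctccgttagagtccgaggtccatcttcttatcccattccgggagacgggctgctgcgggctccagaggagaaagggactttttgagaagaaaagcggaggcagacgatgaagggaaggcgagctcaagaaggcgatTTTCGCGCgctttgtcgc

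The motifs searched were TTTCCCGC, TTTCGCGC, TTTGCCGC and TTTGGCGC on both strands. No other motif was searched. One of them lay in 2 of the 11 windows found for 8 members (all but Cdkn1c and Rb1), at position -99 from the Arf start and at position -18 from the Rbl1 start. Among all 32851 promoter windows of this length 1.86% held one. The CpG dinucleotide, the site of DNA methylation, occurred 40 times in the Arf window and 7 times in the p16 window, with a median of 6 over all windows. Of the member windows 9 of 11 lay above that median, with 28 CpG for Cdkn1b, 24 for Rbl1 and 2 at the upstream start of Cdkn1a. These are descriptions of sequence, and methylation was not measured in these samples.

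The members were well represented on the array. Of 134 probe sets named for them, 114 had a mean over the arrays above the table's median level (log2 5.89) and entered the gene values, or 85.1% against 69.4% of all named probe sets and 18.4% of those for olfactory receptors. Cdkn1b and Cdkn2d kept every probe set (5 and 3), while Cdkn2c kept 5 of 10 and Cdkn2a 6 of 10. The pocket genes rested on 23 (Rb1), 26 (Rbl1) and 29 (Rbl2) probe sets. Next to the filter, probe set 4994802 of Cdkn1c lay just inside at 6.003 and 5078084 of Cdkn2c just outside at 5.88.

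On the arrays as a whole, Dnmt3a read 8.51, 8.70 and 8.50 on the wild-type arrays and 8.38, 8.20 and 8.20 on the Dnmt3a+/- arrays, a log2 difference of -0.31 (SE 0.12, limma adjusted p = 0.631). Every Dnmt3a+/- array was below every wild-type array. The KLS markers Kit, Ly6a, Cd34, Flt3 and Ptprc were all measured and had a mean log2 level of 9.89 to 10.04 in wild-type and 9.71 to 9.86 in Dnmt3a+/- cells, so these ranges did not overlap. All 5 had a lower mean in Dnmt3a+/- cells, with a median difference of -0.23, but Ly6a (Sca-1) stood at only -0.015 (SE 0.13). The median was -0.14 without Dnmt3a+/- replicate 2 and -0.13 after cyclic loess on the gene values, each time with 4 of 5 lower. For 2 of the 5, Kit and Ptprc, the genotypes did not overlap, with Dnmt3a+/- below, as for 9.05% of all genes. Of 26 markers of mature lineages 21 were measured, with a mean level of 7.62 to 7.95 in wild-type and 7.71 to 8.01 in Dnmt3a+/- cells, which overlapped. That mean pools genes of unlike signal. The neutrophil gene S100a9 averaged 11.13 in wild-type and 11.59 in Dnmt3a+/- cells, and S100a8 averaged 11.40 and 11.83. In Dnmt3a+/- cells 12 of the 21 had a higher and 9 a lower mean. Single lineage markers had differences in both directions, and 4 of the 21 had an unadjusted p under 0.05 (limma, 7.49% of all genes), Csf1r at -0.73 and Cd79a at 0.85, Adgre1 at 0.42 and Cd3e at 0.33, with 0 past adjusted p 0.05. Their part in the members' values was not tested. Dnmt3a+/- replicate 2 stood apart from the others, with a mean correlation across genes of 0.904 where the other arrays had 0.938 to 0.949, and the members' differences, counts and list medians that rest on it are also given without it.

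No member differed between the genotypes after adjustment over all genes (limma, smallest adjusted p = 0.644, for Rb1), and 0 of 10 had an unadjusted p under 0.05. Over all genes 0 of 20059 passed at adjusted p 0.05 (0%), and 7.49% had an unadjusted p under 0.05. The Dnmt3a+/- mean was the lower one for 8 of 10 members, with a median log2 difference of -0.15, where 54.3% of all genes had a lower mean and the median was -0.02. Without Dnmt3a+/- replicate 2 it was lower for 5 of 10, and the median was -0.03. In RNA of sorted cells, fewer cells of a type and less RNA per cell cannot be told apart.

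**Figure D1:**
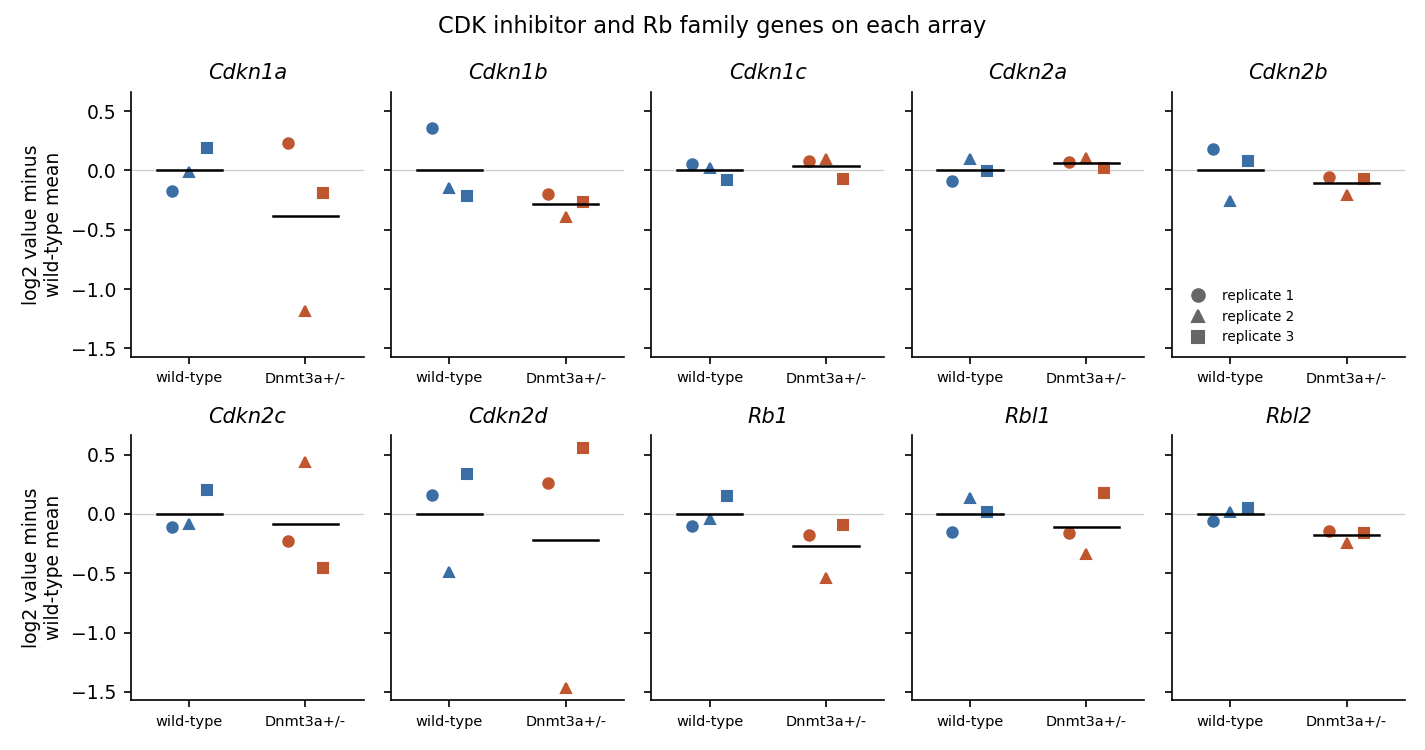
Each panel shows 1 gene, with the log2 value of each array minus the gene's wild-type mean on the vertical axis and the genotype on the horizontal axis. Points are single arrays, their shape gives the replicate number, and black lines are genotype means. Dnmt3a+/- replicate 2 (triangle) is far below the other arrays for Cdkn1a and Cdkn2d and above them for Cdkn2c, while Rbl2 is the gene whose genotypes do not overlap.

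Among the Cip/Kip inhibitors, Cdkn1a (p21, a main target of p53) had the most negative difference of the 10 genes, and 1 array set it. It read 7.61, 7.77 and 7.97 on the wild-type arrays and 8.02, 6.60 and 7.59 on the Dnmt3a+/- arrays. The 6.60 belongs to replicate 2, while replicate 1 was the highest of all 6 arrays. Its genotype difference of -0.38 (SE 0.32, 95% confidence interval -1.13 to 0.36) is a fold of 0.768 (limma, adjusted p = 0.709, exact permutation p = 0.6). Without Dnmt3a+/- replicate 2 the difference was 0.02 (SE 0.17). The SD of 0.73 among Dnmt3a+/- arrays compares with 0.18 among wild-type arrays and a median Dnmt3a+/- SD of 0.17 over all genes.

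The probe sets of Cdkn1a did not move alike. On Dnmt3a+/- replicate 2, probe set 5574622 read 6.02 and 4335093 read 5.70, and on the other arrays they read 6.94 to 8.71 and 7.26 to 7.99. These 2 had the lowest differences, -1.02 (SE 0.60) and -0.99 (SE 0.49). Probe set 5517298 lay at the other end with 0.79 (SE 0.56), and read 6.39, 7.04 and 7.36 on the wild-type arrays and 7.96, 6.48 and 8.73 on the Dnmt3a+/- arrays. Of the 5 probe sets 4 were lower in Dnmt3a+/- cells and in 0 did the genotypes separate.

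Cdkn1b (p27) read 9.37, 8.86 and 8.80 on the wild-type arrays and 8.81, 8.62 and 8.74 on the Dnmt3a+/- arrays. Wild-type replicate 1 was the high array, and the lowest wild-type array lay just below the highest Dnmt3a+/- array. All 5 probe sets were lower in Dnmt3a+/- cells, from -0.51 (4853562, SE 0.29) to -0.16 (4391567, SE 0.17). The gene difference was -0.28 (SE 0.17, limma adjusted p = 0.651, exact permutation p = 0.2), and -0.10 (SE 0.13) without wild-type replicate 1. Probe set 4391567, with the smallest mean difference, was the 1 whose genotypes did not overlap, by a narrow margin, with 8.85, 9.04 and 8.93 on the wild-type arrays and 8.85, 8.73 and 8.76 on the Dnmt3a+/- arrays.

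Cdkn1c (p57), an imprinted gene expressed from the maternal copy, was close between the genotypes on every array. Its values were 7.63, 7.60 and 7.50 on the wild-type arrays and 7.66, 7.67 and 7.51 on the Dnmt3a+/- arrays. With a difference of 0.04 (SE 0.11) the 95% confidence interval ran from -0.21 to 0.29 (limma, adjusted p = 0.917). Its probe sets ranged from -0.22 (4994802) to 0.23 (5130076).

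Among the Ink4 inhibitors Cdkn2a had the smallest spread. It read 7.64, 7.83 and 7.73 on the wild-type arrays and 7.80, 7.84 and 7.76 on the Dnmt3a+/- arrays, with overlapping genotypes and a difference of 0.06 (SE 0.11, 95% confidence interval -0.18 to 0.31, limma adjusted p = 0.837). Probe sets ran from -0.14 (4932098, SE 0.17) to 0.42 (5073065, SE 0.19). The last read 6.74, 6.74 and 6.95 on the wild-type arrays and 7.29, 7.39 and 7.01 on the Dnmt3a+/- arrays and did not overlap. Nor did 4976462 at 0.12 (SE 0.16), where 6.31% of all probe sets lay apart with Dnmt3a+/- above. Neither passed over all probe sets (limma, adjusted p = 0.799 for 5073065 and adjusted p = 0.897 for 4976462). Probe-set positions were not used here, and it is not known which of them read the Arf start, the p16 start or the exons that both transcripts share.

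Cdkn2b (p15), the neighbour of Cdkn2a on chromosome 4, read 7.52, 7.08 and 7.42 on the wild-type arrays and 7.29, 7.13 and 7.27 on the Dnmt3a+/- arrays. All Dnmt3a+/- values lay within the wild-type range, and the difference was -0.11 (SE 0.14, limma adjusted p = 0.790). Its probe sets ran from -0.31 (4723910) to 0.01 (5463047).

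Cdkn2c (p18) read 7.28, 7.31 and 7.60 on the wild-type arrays and 7.17, 7.83 and 6.94 on the Dnmt3a+/- arrays. Replicate 2 was the highest and the other Dnmt3a+/- arrays the lowest of all 6. Its difference was -0.08 (SE 0.23) with every array and -0.34 (SE 0.14) without Dnmt3a+/- replicate 2 (limma, adjusted p = 0.903 and adjusted p = 0.876). Without that array the genotypes did not overlap for Cdkn2c, nor for Rbl2. Fewer arrays separate more easily, and Dnmt3a+/- then lay below without overlap for 12.5% of all genes, against 9.05% with every array. Probe set 5136930 set Dnmt3a+/- replicate 2 furthest apart, at 8.72 against 5.97 and 5.55 on the other Dnmt3a+/- arrays and 6.74 to 6.99 in wild-type cells. The lowest and highest probe sets were 4838582 at -0.45 and 5109039 at 0.15.

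Cdkn2d (p19, the fourth Ink4 inhibitor) was the least precise member. It read 6.91, 6.26 and 7.09 on the wild-type arrays and 7.01, 5.28 and 7.31 on the Dnmt3a+/- arrays, with replicate 2 low in both genotypes. The difference of -0.22 had an SE of 0.49, against a median SE of 0.14 over all genes (limma, adjusted p = 0.883), and without Dnmt3a+/- replicate 2 it was 0.41 (SE 0.25). Probe set 4750552, which ran from 2.69 on Dnmt3a+/- replicate 2 to 8.31 on Dnmt3a+/- replicate 3, set that spread, at -0.80 (SE 1.42). The brightest of its 3 probe sets, 5408131, stood at 0.18 (SE 0.18).

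**Figure D2:**
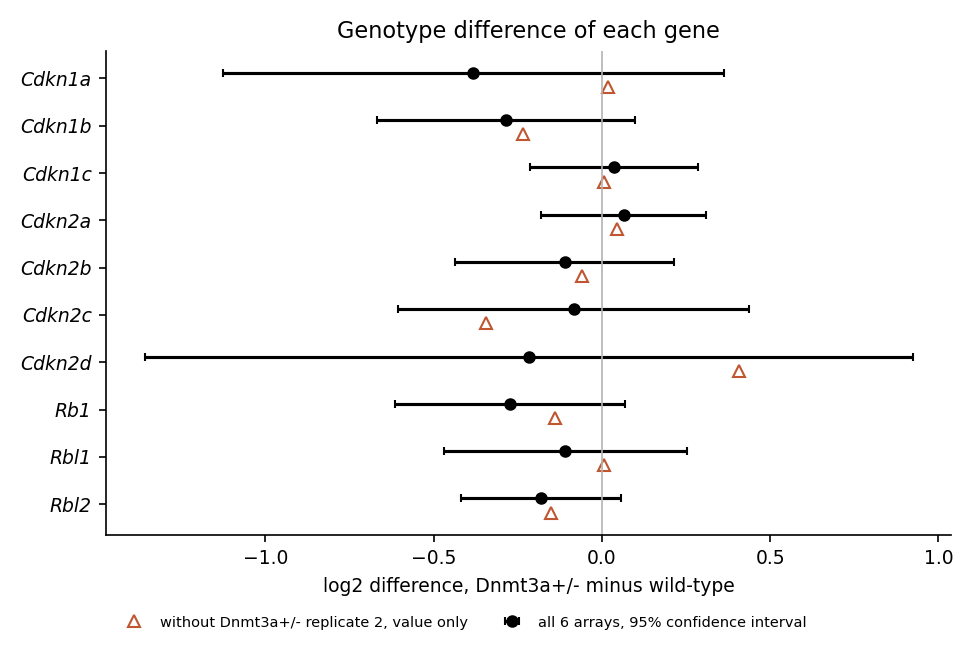
Log2 difference (Dnmt3a+/- minus wild-type, horizontal axis) of each gene, with all 6 arrays (black points with the 95% confidence interval of the limma fit) and without Dnmt3a+/- replicate 2 (open triangles, values only). Every interval spans 0, and the triangles of Cdkn1a, Cdkn2d and Rbl1 lie on the other side of 0 from their points.

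The pocket protein genes were measured with the most probe sets, and all 3 had a lower mean in Dnmt3a+/- cells. Rb1, the founding tumour suppressor of the family, read 7.79, 7.85 and 8.05 on the wild-type arrays and 7.72, 7.35 and 7.80 on the Dnmt3a+/- arrays. Replicate 2 was lowest, and the highest Dnmt3a+/- array lay just above the lowest wild-type array. The difference of -0.27 (SE 0.15, 95% confidence interval -0.62 to 0.07) is a fold of 0.827 (limma, adjusted p = 0.644, exact permutation p = 0.2), and without Dnmt3a+/- replicate 2 it was -0.14 (SE 0.12).

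Of 23 Rb1 probe sets 17 were lower in Dnmt3a+/- cells, and 4 of these had all Dnmt3a+/- arrays below all wild-type arrays. Over all probe sets that share was 6.1%. The extremes of the 23 were -0.75 (5133248, SE 0.25) and 0.39 (5159131, SE 0.31). Probe set 5133248 read 7.75, 8.41 and 7.62 on the wild-type arrays and 7.14, 7.04 and 7.34 on the Dnmt3a+/- arrays. There all Dnmt3a+/- arrays were below all wild-type arrays, replicate 2 by little more than the others (limma over all probe sets, adjusted p = 0.799).

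Rbl2 (p130), the pocket protein that is prominent in resting cells, was the 1 member whose genotypes did not overlap. It read 8.61, 8.68 and 8.72 on the wild-type arrays and 8.53, 8.43 and 8.51 on the Dnmt3a+/- arrays. Every Dnmt3a+/- array was below every wild-type array, as it was for 9.05% of all genes, so 1 of 10 members is near the background. The difference was -0.18 (SE 0.10, 95% confidence interval -0.42 to 0.06), a fold of 0.882 (limma, adjusted p = 0.646). The exact permutation p of 0.1 is the smallest that 3 against 3 arrays allow. The size depended little on Dnmt3a+/- replicate 2 (-0.15, SE 0.11 without it), and the SDs were 0.06 on the wild-type arrays and 0.05 on the Dnmt3a+/- arrays. After cyclic loess on the gene values, which removes level-dependent differences between arrays, it was -0.05 (SE 0.09) and the genotypes overlapped. They also overlapped with the median of probe sets in place of the mean, where Rb1 was the member that did not overlap.

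Of the 29 probe sets of Rbl2, 23 were lower in Dnmt3a+/- cells, with extremes of -0.88 (4548801, SE 0.37) and 0.46 (5416950, SE 0.38). The bright probe set 5432859 read 10.86, 10.63 and 10.67 on the wild-type arrays and 10.27, 10.28 and 10.17 on the Dnmt3a+/- arrays, a difference of -0.48 (SE 0.17, limma adjusted p = 0.799). In it the 3 arrays of each genotype lay close together and well apart from the other genotype. It is singled out here after its values were seen.

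Rbl1 (p107), whose E2F motif is shown above, read 7.71, 7.99 and 7.88 on the wild-type arrays and 7.70, 7.52 and 8.04 on the Dnmt3a+/- arrays. The genotypes overlapped fully, with the lowest and the highest array both Dnmt3a+/-. The difference was -0.11 (SE 0.16, limma adjusted p = 0.814), and 0.01 (SE 0.15) without Dnmt3a+/- replicate 2. Its 26 probe sets ran from -0.65 (4614118, SE 0.30) to 0.49 (5374290, SE 0.29).

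**Figure D3:**
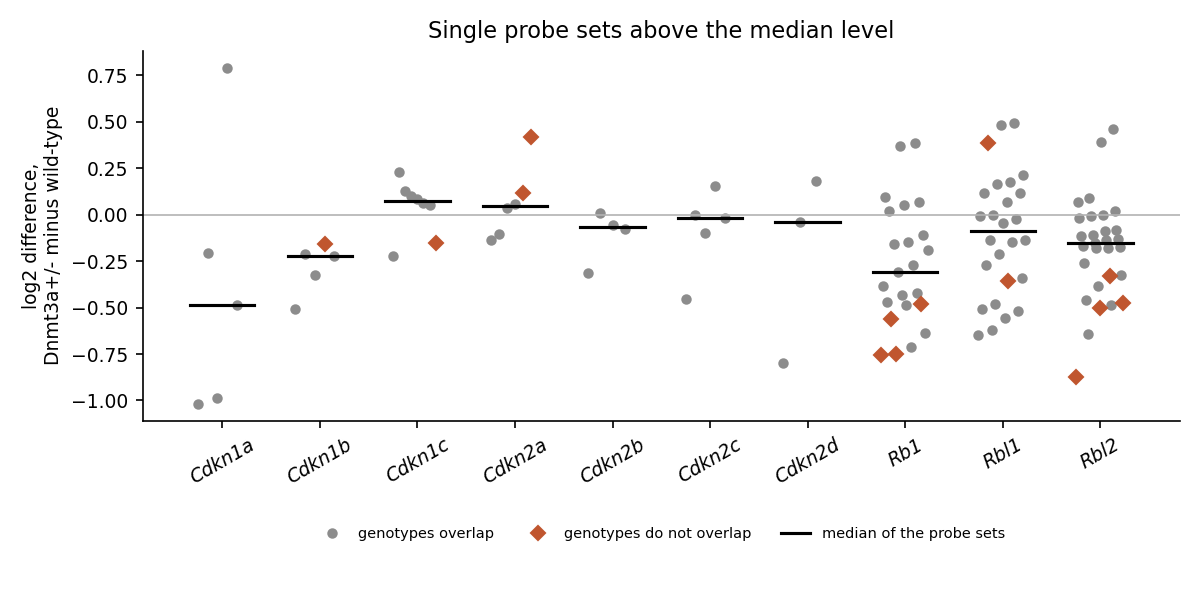
Log2 difference (Dnmt3a+/- minus wild-type, vertical axis) of each of the 114 probe sets above the median level, by gene. Grey points are probe sets whose genotypes overlap, diamonds those whose genotypes do not, and black lines are the median of a gene's probe sets. The diamonds of Rb1 and Rbl2 all lie below 0, and those of Cdkn2a above it.

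Over the members' 114 probe sets, 79 were lower in Dnmt3a+/- cells (69.3%), where 50.3% of all probe sets were. Without Dnmt3a+/- replicate 2 it was 71 (62.3%, against 49.9% of all). The baseline is not like for like. Of its 628415 probe sets above the median level only 221209 carry exactly 1 gene symbol, as all member probe sets do. The genotypes did not overlap in 11 with Dnmt3a+/- below (9.65%, against 6.1% of all probe sets) and in 3 with Dnmt3a+/- above (2.63%, against 6.31%). An unadjusted p under 0.05 was found for 6 (5.26%, against 6.21% of all probe sets), 3 of them in Rb1 and 3 in Rbl2, and 0 passed adjusted over all 628415 probe sets (limma, 0% of all, smallest adjusted p among the members = 0.799). Of the 78 pocket protein probe sets 57 were lower (73.1%), against 11 of 18 for Cip/Kip and 11 of 18 for Ink4, and 48 of 78 (61.5%) without Dnmt3a+/- replicate 2. Probe sets of a gene share the RNA of the same 6 arrays and are not replicates, so these shares describe the arrays.

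The pattern of Rb1, the member with the smallest unadjusted p, was compared with every other gene as the root mean square distance of the 6 centred log2 values. Lyrm2 was nearest (0.024), followed by Alg13 (0.030) and Lgals9 (0.034), where the values of Rb1 itself varied by 0.208 around their mean. These are the nearest of 20059 genes over only 6 arrays, and the distance is given as a description.

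The partners of the inhibitors gave the same picture of small differences that did not pass. Of 19 measured cyclins, CDKs and their regulators, 11 had a lower mean in Dnmt3a+/- cells, and the median difference was -0.12. Without Dnmt3a+/- replicate 2, 9 were lower and the median was 0.0046, and without wild-type replicate 3 the median was -0.030. Ccnd2, a D-type cyclin, read 9.38, 9.46 and 9.36 on the wild-type arrays and 9.19, 9.24 and 8.95 on the Dnmt3a+/- arrays, with no overlap. Its difference of -0.27 (SE 0.12) had an unadjusted p of 0.0491 and did not pass over all genes (limma, adjusted p = 0.631). The kinase gene Cdk2 stood at -0.33 (SE 0.17) and the phosphatase gene Cdc25a at -0.20 (SE 0.12). The genotypes did not overlap for 4 of the 19 genes, 2 with Dnmt3a+/- below and 2 with it above, where the share over all genes was 15.8%.

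Of 18 genes of the E2F, DP and DREAM group, some of which partner the pocket proteins on DNA, 11 were lower with a median of -0.04. Leaving out 1 array moved that median between -0.15 (without wild-type replicate 1) and 0.031 (without wild-type replicate 2), and it was 0.020 without Dnmt3a+/- replicate 2. Lin37, a subunit of the MuvB core that p130 and p107 join, had a difference of -0.45 (SE 0.18, unadjusted p = 0.0395, limma adjusted p = 0.631). Its values were 8.18, 8.61 and 8.39 on the wild-type arrays and 8.23, 7.63 and 7.98 on the Dnmt3a+/- arrays, so the genotypes overlapped. The kinase gene Dyrk1a, which promotes DREAM assembly, stood at -0.18 (SE 0.11) and Tfdp2, a dimer partner of E2F, at -0.17 (SE 0.13).

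E2F target genes, the replication genes that pocket proteins restrain, had a median difference of -0.05 over 18 measured members, 11 lower and 7 higher. Its sign depended on single arrays. Without Dnmt3a+/- replicate 2 the median was 0.12 with 0 of 18 lower, without wild-type replicate 2 or 3 it was 0.049 or 0.048, and without wild-type replicate 1 it was -0.23. Cdt1, a replication licensing factor, stood at 0.17 (SE 0.10), the helicase subunit Mcm5 at -0.24 (SE 0.24) and Cdk1 at -0.24 (SE 0.26), and 0 members passed (limma, smallest adjusted p = 0.657, with 0 at an unadjusted p under 0.05). The list varied more within genotypes than between them. With each gene set against its wild-type mean, the list's median was -0.35, 0.23 and 0.14 on the wild-type arrays and 0.02, -0.27 and 0.15 on the Dnmt3a+/- arrays. Wild-type replicate 1 and Dnmt3a+/- replicate 2 were the low arrays, and the rest lay at or above 0. On wild-type replicate 1 Cdkn1b was at its highest (9.37), and on Dnmt3a+/- replicate 2 it was at its lowest (8.62). The list shares Ccne1, Ccna2 and Cdk1 with the cyclin list.

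Upstream regulators of the inhibitors had 17 of 21 measured members with a lower mean, where 54.3% of all genes did, and a median of -0.10. The list was not split into activators and repressors of the inhibitors, so its count has no single meaning for them. Mdm2, the ligase that restrains p53, stood at -0.30 (SE 0.14), Men1, which is known to act on Cdkn1b and Cdkn2c, at -0.22 (SE 0.11) and the Polycomb gene Ring1 at -0.25 (SE 0.13), and in each the genotypes did not overlap. That was so for 5 of the 21 in all, each with Dnmt3a+/- below, where the share over all genes was 9.05% in that direction, and 0 passed (limma, adjusted p = 0.631 for Mdm2, with 0 at an unadjusted p under 0.05). The list's median per array was 0.02, -0.02 and 0.01 on the wild-type arrays and -0.11, -0.20 and -0.05 on the Dnmt3a+/- arrays. All Dnmt3a+/- arrays were below all wild-type arrays, by the least for replicate 3. After cyclic loess on the gene values the median difference was -0.03 with 14 of 21 lower. Without Dnmt3a+/- replicate 2 it was -0.09 with 15 of 21 lower.

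A list of 12 degradation genes included genes of the SCF ligase that removes p27. Not all of its genes act on the inhibitors, so its count has no single meaning for them. In Dnmt3a+/- cells 10 of 12 had a lower mean, where 54.3% of all genes did, and the median difference was -0.11. Without Dnmt3a+/- replicate 2, 5 of 12 were lower and the median was 0.0048. Fbxw7, an SCF subunit that targets cyclin E, stood at -0.29 (SE 0.16), Cdc20 at -0.43 (SE 0.24) and the scaffold gene Cul1 at -0.23 (SE 0.15). That array read 6.76 for Fbxw7 and 7.33 for Cdc20, where the other Dnmt3a+/- arrays read 7.32 and 7.21, and 8.14 and 8.33. None passed and none had an unadjusted p under 0.05 (limma, smallest adjusted p = 0.646), and in 0 of 12 did the genotypes separate. After cyclic loess on the gene values the median was 0.00.

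**Figure D4:**
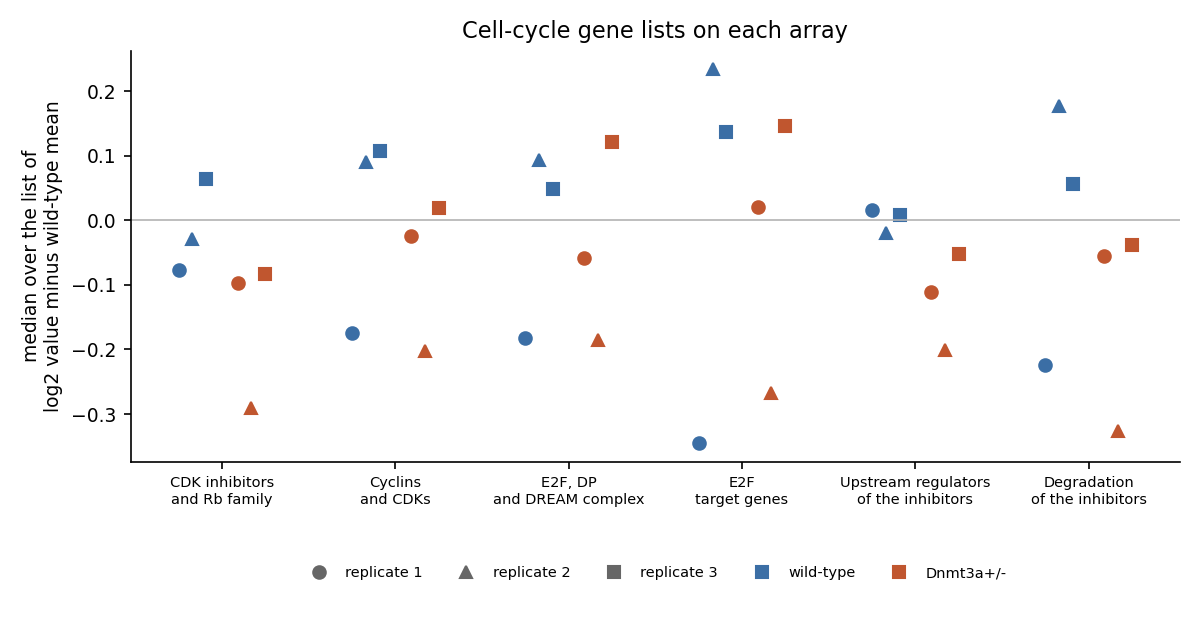
For each gene list (horizontal axis), the median over its genes of the log2 value minus the gene's wild-type mean (vertical axis) on each array, with genotype by colour and replicate number by shape. Wild-type replicate 1 and Dnmt3a+/- replicate 2 are the lowest arrays for the cyclins, the E2F group, the E2F target genes and the degradation genes, and the genotypes separate narrowly for the upstream regulators and for the CDK inhibitors and Rb family.

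The members' own median per array was -0.08, -0.03 and 0.06 on the wild-type arrays and -0.10, -0.29 and -0.08 on the Dnmt3a+/- arrays. By this median the genotypes did not overlap, but Dnmt3a+/- replicates 1 and 3 lay close to wild-type replicate 1, and Dnmt3a+/- replicate 2 was well below. By the members' mean level the genotypes overlapped. It was 7.81, 7.72 and 7.87 on the wild-type arrays and 7.77, 7.43 and 7.75 on the Dnmt3a+/- arrays.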

How the data were processed

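The authors deposited a normalized intensity for each probe set on each array, on a linear scale. RMA in Partek made these values, per the submitters' processing notes. RMA usually brings the arrays close to one distribution, so a shift of most genes at once would largely be hidden. The median intensity ran from 59.8 to 61.6 across the arrays. Versions, settings and genome build: not given in the sources used here. Per the labels' protocols, TRIzol-extracted RNA was amplified as whole-transcript cDNA and labelled with biotin.

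Log2 was taken with no pseudocount. Of 1256831 probe sets, 318760 had exactly 1 platform symbol, updated to RefSeq (GRCm38.p6) where it was an older name. A gene's value was the mean of those of its probe sets that lay above the table's median level (log2 5.89). The genotype fit used limma 3.58.1 under R 4.3.3 (lmFit, then eBayes, no covariate, Benjamini-Hochberg over all 20059 genes or 628415 probe sets) and, for each member, with an exact two-sided permutation test. Differences are Dnmt3a+/- minus wild-type. Levels are not compared between genes, since probes differ in brightness. The fit was tested on simulated data. The number of arrays limits the precision.

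Members and partner lists were chosen with earlier results of these data known. Named are all members, the lowest and highest probe set of each, the 3 genes of each partner list with the smallest p, and the 3 genes nearest to the member with the smallest p. Other probe sets were chosen after their values were seen. Partner genes without a value were left out. Alternatives were the filter on dim probe sets, the summary, the scaling, the variance model, array weights, a replicate block and leaving out each array. Cyclic loess on gene values was added after the data were examined.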

Additional observations from a re-analysis of the deposited data

How the results depend on the processing

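No member passed adjusted p 0.05 under any of the 15 alternatives (limma, adjusted p = 0.415 to 0.997), and 138 of the 150 member values kept their direction. The other 12 turned their sign. The variance model and the replicate block change only the error of a difference, so their values kept direction by design. With single arrays left out, the difference ran from -0.69 to 0.019 for Cdkn1a, from -0.61 to 0.41 for Cdkn2d and from -0.25 to 0.0066 for Rbl1, each time with the highest value without Dnmt3a+/- replicate 2. It ran from -0.004 (without wild-type replicate 3) to 0.088 for Cdkn1c, and from -0.34 to 0.10 for Cdkn2c, which was above 0 without wild-type replicate 3 (0.016) or Dnmt3a+/- replicate 3. With probe sets above the 75th percentile Cdkn2a was at -0.023, Cdkn2c at 0.068 and Cdkn2d at 0.18. With the median of probe sets Cdkn2b was at 0.0036 and Cdkn2c at 0.14, and with array weights Cdkn2d was at 0.13. The cause of these shifts was not tested. Rb1, Rbl2 and Cdkn1b were lower under each alternative run. The members' median ran from -0.22 to -0.027 when single arrays were left out, with the value nearest 0 without Dnmt3a+/- replicate 2. The upstream regulators' median was -0.031 after cyclic loess on gene values, and the other list medians moved by less than the spread between arrays, although 4 of them turned their sign under some alternative. They ran from -0.21 to 0.0046 for the cyclins, from -0.15 to 0.031 for the E2F group, from -0.23 to 0.12 for the E2F target genes and from -0.22 to 0.0048 for the degradation genes. The same-numbered arrays deviated from their genotype means with correlations of -0.048, -0.091 and 0.113 across genes. Those of arrays with unlike numbers ran from -0.165 to 0.174. With 3 arrays per genotype these values cannot tell whether the numbers pair the samples. With the replicate block 0 genes passed, and 1274 had an unadjusted p under 0.05 (limma, 1502 without the block). The members' adjusted p then ran from 0.714 to 0.935. The SE of Cdkn2d was 0.25 with the block and 0.49 without it. Of the member probe sets, 6 had an unadjusted p under 0.05 in the main setting, 2 without the filter, 3 after a second quantile normalization, 3 without wild-type replicate 2, 3 without wild-type replicate 3 and 1 with the replicate block. The genes with an unadjusted p under 0.05 numbered 925 without wild-type replicate 2, 989 without wild-type replicate 3 and 2593 with array weights.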

Other observations

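Probe sets below the median level were left out of the gene values, and 20 of the members' 134 were of this kind. Cdkn2a had 4, each with a higher mean in Dnmt3a+/- cells (0.18 to 0.68). The largest, probe set 4721278, rested on 1 array: it read 5.09 on Dnmt3a+/- replicate 1 and 2.48 to 3.02 on the other arrays. Probe set 4987274 read 4.50, 4.70 and 4.71 on the wild-type arrays and 4.83, 5.34 and 5.19 on the Dnmt3a+/- arrays, without overlap. With them the Cdkn2a difference was 0.21 (SE 0.12, limma adjusted p = 0.676), and its genotypes did not overlap, with Dnmt3a+/- above. The share of such separations was not counted among dim probe sets, nor among all genes in this setting. Over all genes in the main setting it was 6.74% in that direction. Cdkn2c had 5 dim probe sets, 4 of them lower in Dnmt3a+/- cells, and with them its difference was -0.31 (SE 0.17, limma adjusted p = 0.670), where it was -0.08 without them. These values are given without a test of the dim probe sets themselves.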
